A study of Mus musculus with 6 samples.

Results

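The Cypt genes of the mouse testis are described here by their structure, their upstream sequence and their RNA levels. The 5 members, Cypt1, Cypt2, Cypt3, Cypt4 and Cypt12, were chosen by the read counts of this same comparison: Cypt1 and Cypt2 were lower in the libraries labelled cKO, and 3 further genes of the family were added by name. They are 5 of the 53700 gene identifiers in the count tables and 5 of the 21902 genes with enough reads to be tested. The annotation holds 7 genes with a numbered Cypt symbol, and the other two, Cypt14 and Cypt15, are given for comparison. RNA came from whole testes at postnatal day 45, with 3 mice of the Msl3 wild-type genotype (WT) and 3 with a floxed conditional knockout of Msl3 (cKO). Every mouse had the strain label Msl3em1Forni/C57BL/6J, and the labels give no treatment. The labels do not say which recombinase line was used, in which cells it acts or which part of Msl3 it removes. Msl3 is an X-linked subunit of a chromatin-modifying complex, and the series asks whether spermatogenesis needs it.

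Cypt stands for cysteine-rich perinuclear theca. The perinuclear theca is a rigid protein sheath of the sperm head that lies between the nucleus and the acrosome and continues behind the acrosome under the plasma membrane. Cypt genes are transcribed in spermatids, the haploid germ cells that turn into sperm. Several of them lie on the X chromosome, whose genes are mostly silenced during meiosis and of which a subset is expressed again in spermatids. The promoter of the Y-linked gene Zfy2, which encodes a zinc finger transcription factor, is known to be related to Cypt promoters.

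The members were of 2 structural kinds. Cypt1 (chrX:16522869-16523689), Cypt2 (chrX:105499772-105500639) and Cypt3 (chrX:153558593-153559429) were X-linked and had 2 exons each. Cypt4 (chr9:24625196-24625824) and Cypt12 (chr3:17948410-17948959) were autosomal and had 1 exon each. All of these genes lie on the plus strand in GENCODE M21 (GRCm38, the same assembly as mm10). Their coding parts were 173 codons in Cypt1, 180 in Cypt2, 174 in Cypt3, 153 in Cypt4 and 119 in Cypt12, each counted in the longest transcript. Cypt15 and Cypt14 were X-linked with 2 exons and 87 codons each. Cypt4 lies in an intron of Dpy19l2, on the opposite strand, with 0 exons of Dpy19l2 over it. No annotated gene overlaps any of the other 4 members.

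Upstream sequence tied the family together, so it is shown for the 5 members and Zfy2. Each line gives 120 bases, 5' to 3' in the direction of the gene, from RefSeq with the build GRCm38.p6. The capitals mark a CCAAT motif and, at the end of each line, the longest run that all 6 genes share, which has 13 bases. That run ends 31 bases before the RefSeq start of Cypt1, 35 before those of Cypt2, Cypt3 and Cypt12, 24 before that of Cypt4 and 21 before that of Zfy2.
Cypt1 (chrX:16522719-16522838, plus strand): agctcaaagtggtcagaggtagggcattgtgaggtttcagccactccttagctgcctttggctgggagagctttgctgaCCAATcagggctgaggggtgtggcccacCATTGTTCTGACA
Cypt2 (chrX:105499618-105499737, plus strand): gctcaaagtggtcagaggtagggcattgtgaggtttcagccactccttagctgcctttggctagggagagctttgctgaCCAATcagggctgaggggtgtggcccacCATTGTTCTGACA
Cypt3 (chrX:153558439-153558558, plus strand): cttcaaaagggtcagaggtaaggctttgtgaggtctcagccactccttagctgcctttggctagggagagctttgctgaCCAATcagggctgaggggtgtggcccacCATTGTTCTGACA
Cypt4 (chr9:24625042-24625161, plus strand): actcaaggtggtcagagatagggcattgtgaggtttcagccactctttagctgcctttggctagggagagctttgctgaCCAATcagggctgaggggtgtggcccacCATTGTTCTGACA
Cypt12 (chr3:17948290-17948409, plus strand): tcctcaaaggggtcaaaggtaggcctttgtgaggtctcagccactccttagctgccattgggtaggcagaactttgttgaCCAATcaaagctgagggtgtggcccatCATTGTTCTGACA
Zfy2 (chrY:2170430-2170549, minus strand): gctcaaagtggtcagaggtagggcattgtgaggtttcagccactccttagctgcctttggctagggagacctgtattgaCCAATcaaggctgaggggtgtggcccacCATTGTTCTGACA

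The run CATTGTTCTGACA was found on either strand within 250 bases upstream of 8 of 27025 mouse genes with a RefSeq entry. These 8 genes were the 7 Cypt genes and Zfy2. The run was defined from the 5 members and Zfy2, so its presence in those genes was fixed. Extended by 1 base at its end, the run was found in the 7 Cypt genes only. The absence of the extended run from Zfy2 was fixed too, since 13 bases was the longest run shared with it. How often other runs of this length recur among genes was not measured. Cypt1, Cypt2, Cypt3 and Cypt4 shared an unbroken run of 58 bases that holds both capitalised stretches. The gap between CCAAT and the final run was 23 bases in Cypt1, Cypt2, Cypt3, Cypt4 and Zfy2 and 22 bases in Cypt12. CCAAT, searched on both strands, stood in this region of 37.5% of all genes, so it is common among promoters. Cypt14, Cypt15 and Zfy1 had no CCAAT in the window. TATAA, also searched on both strands and present in 25.8% of all genes, was found in Cypt1. It was also found in Zfy2 and Zfy1, but in none of the other 4 members. The cAMP response element TGACGTCA, present in 1.77% of all genes, was found in none of the 7 Cypt genes.

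Over 250 upstream bases the family split into 2 groups of like sequence. Cypt1 was 94.0% identical to Cypt2, 92.4% to Cypt4 and 90.4% to Zfy2. Cypt12 was 92.0% identical to Cypt15 and 91.6% to Cypt14, and 73.6% to Cypt1. Cypt3 was nearer to the group of Cypt12, with 83.2% to Cypt12, 83.6% to Cypt14 and 84.4% to Cypt15. Its identity was 80.4% to Cypt2, 79.2% to Cypt1, 75.6% to Cypt4 and 72.0% to Zfy2. Zfy1, the Y-linked copy of Zfy2 with another upstream region, was 56.8% to 61.2% identical to each of these genes. Unrelated genes were not aligned, so the level that this alignment gives for unlike sequences was not measured. The autosomal Cypt4 thus carried upstream sequence of the kind seen in the X-linked Cypt1 and Cypt2.

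**Figure D1:**
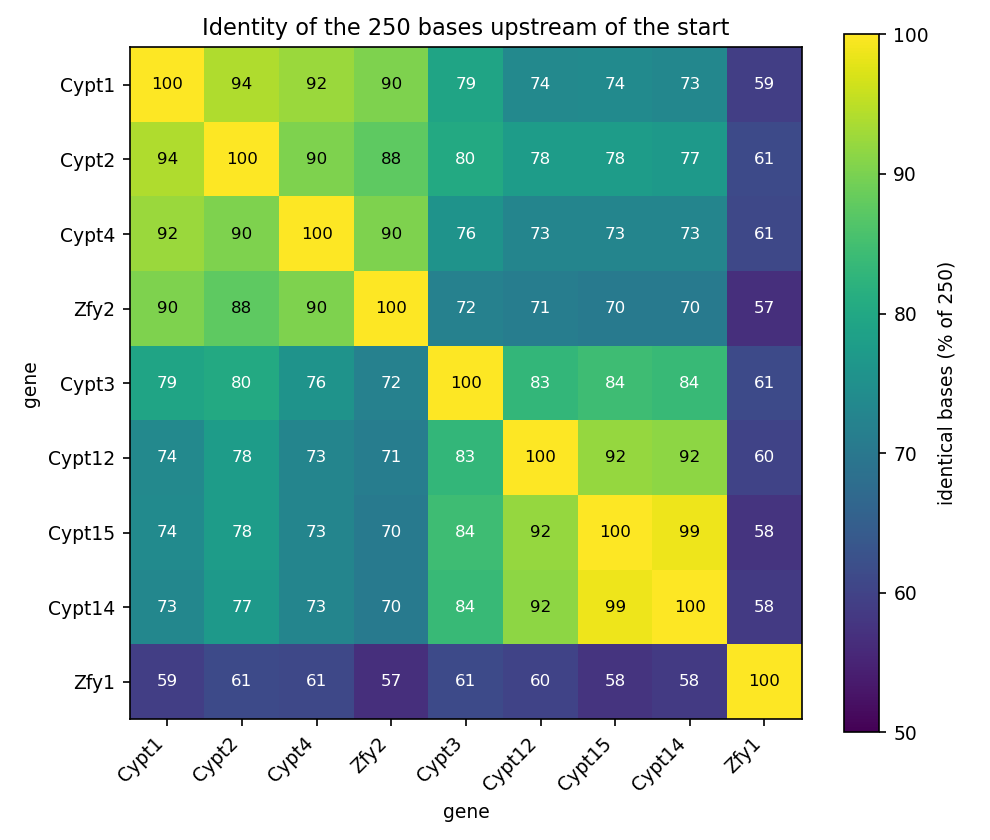
Identity of the 250 bases upstream of the RefSeq start for each pair of the 7 Cypt genes, Zfy2 and Zfy1, as a percentage of 250 bases, with genes on both axes and colour from 50 to 100%. Cypt1, Cypt2, Cypt4 and Zfy2 form a block from 88 to 94%, Cypt12, Cypt14 and Cypt15 form another from 92 to 99%, and Zfy1 lies between 56.8% and 61.2%.

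The transcripts were alike but distinct enough to count apart. Cypt3 was 85.1% identical to Cypt1, 84.9% to Cypt2 and 82.5% to Cypt4 over the longest transcripts, whereas Cypt12 was 57.4% to 62.0% identical to Cypt1, Cypt2, Cypt3 and Cypt4. Reads were 75 bases long, and 0 of the 75-base stretches of each member occurred in annotated transcripts of another gene. For shorter stretches of 31 bases the shared part was 2.80% in Cypt1, 13.5% in Cypt2, 15.96% in Cypt3, 17.7% in Cypt4 and 1.15% in Cypt12. Between Cypt14 and Cypt15, 8.53% of the 75-base stretches of Cypt14 were shared, so their counts are less certain. The comparison covers exact matches among transcripts, not the whole genome. Reads on the strand opposite to the counted one made up 0.0218% to 0.102% of the stranded reads of a member, against 3.84% to 4.01% over all genes of a library. For Cypt4 that strand is the strand of Dpy19l2, and the share was 0.0796%.

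The 6 libraries held 56991431 to 73766444 reads assigned to genes. Members had between 2706 and 23408 reads per library. Levels within a gene are given as CPM, reads scaled to library size. Msl3 itself did not separate the labels: it had 16.9 ± 1.68 CPM (SD, n = 3) under the WT label and 15.5 ± 0.649 CPM (SD, n = 3) under the cKO label (log2 fold change -0.12, SE 0.088, edgeR adjusted p = 0.551). The groups are therefore named by their labels, and a lower value means lower in the libraries labelled cKO. Markers of spermatogonia, spermatocytes, spermatids and Sertoli cells were all detected, and epididymal markers, which would show stray tissue, summed to 0.304 to 0.565 CPM.

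Levels per length differed widely within the family. Levels between genes are given as RPKM, which is CPM divided by the exon length in kilobases, on TMM-scaled library sizes. In the WT-labelled libraries, Cypt12 had 620 ± 53.0 RPKM (SD, n = 3) and Cypt4 518 ± 15.5 RPKM (SD, n = 3). Among the X-linked members Cypt1 had 201 ± 22.9 RPKM (SD, n = 3), Cypt3 160 ± 22.7 RPKM (SD, n = 3) and Cypt2 99.9 ± 4.18 RPKM (SD, n = 3). Cypt15 and Cypt14 were far lower, at 13.9 ± 2.68 and 3.53 ± 0.838 RPKM (SD, n = 3). The order Cypt12, Cypt4, Cypt1, Cypt3, Cypt2, Cypt15, Cypt14 held in all 6 libraries. Across libraries labelled WT, Cypt1 and Cypt3 overlapped and no other neighbours in that order did, while across the cKO-labelled libraries Cypt12 and Cypt4 overlapped. The 2 autosomal 1-exon members were thus the most abundant RNAs of the family.

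The X-linked members are described first, by library. Their difference between the groups led to the choice of the family, so it is a description, and no p-value is printed for a member. Which members passed a threshold is told further on, as a description only. Cypt1 encodes the protein after which the family is named. It had 119, 138 and 149.7 CPM in WT 1, 2 and 3 and 86.1, 90.7 and 108 CPM in cKO 1, 2 and 3. Every library labelled cKO lay below every library labelled WT. The means were 136 ± 15.5 and 94.9 ± 11.6 CPM (SD, n = 3), or 70.0% of the WT level, with a log2 fold change of -0.51 (SE 0.10).

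Cypt2, whose upstream region is nearest to that of Cypt1, had 66.5, 72.2 and 70.2 CPM in the WT-labelled libraries and 54.4, 48.3 and 56.2 CPM in the cKO-labelled libraries. The groups did not overlap, and the spread within WT was the narrowest of the X-linked members, at 4.18% of the mean. The means were 69.6 ± 2.91 and 53.0 ± 4.11 CPM (SD, n = 3), for a log2 change of -0.39 (SE 0.075). Cypt3 had 91.2, 112 and 121 CPM in the WT-labelled libraries and 83.8, 69.0 and 83.6 CPM in the cKO-labelled libraries. Its groups did not overlap either, but WT 1 lay closer to cKO 1 than to the other WT libraries. The means were 108 ± 15.3 and 78.8 ± 8.50 CPM (SD, n = 3), for a log2 change of -0.46 (SE 0.11).

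The autosomal members had log2 fold changes nearer to 0 and overlapping groups. The difference between the X-linked and autosomal members was not tested. Cypt4 had 315, 329.6 and 333 CPM in the WT-labelled libraries and 317, 246 and 265 CPM in the cKO-labelled libraries. Its means were 326 ± 9.77 and 276 ± 36.6 CPM (SD, n = 3), for a log2 change of -0.24 (SE 0.088). In cKO 1 Cypt4 stood inside the WT range, and in cKO 2 and 3 it lay below that range. Cypt12 had 307, 360.5 and 355 CPM in the WT-labelled libraries and 311.5, 254.5 and 276 CPM in the cKO-labelled libraries. It showed the same arrangement, with cKO 1 inside the WT range, and its log2 fold change was -0.28 (SE 0.088).

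**Figure D2:**
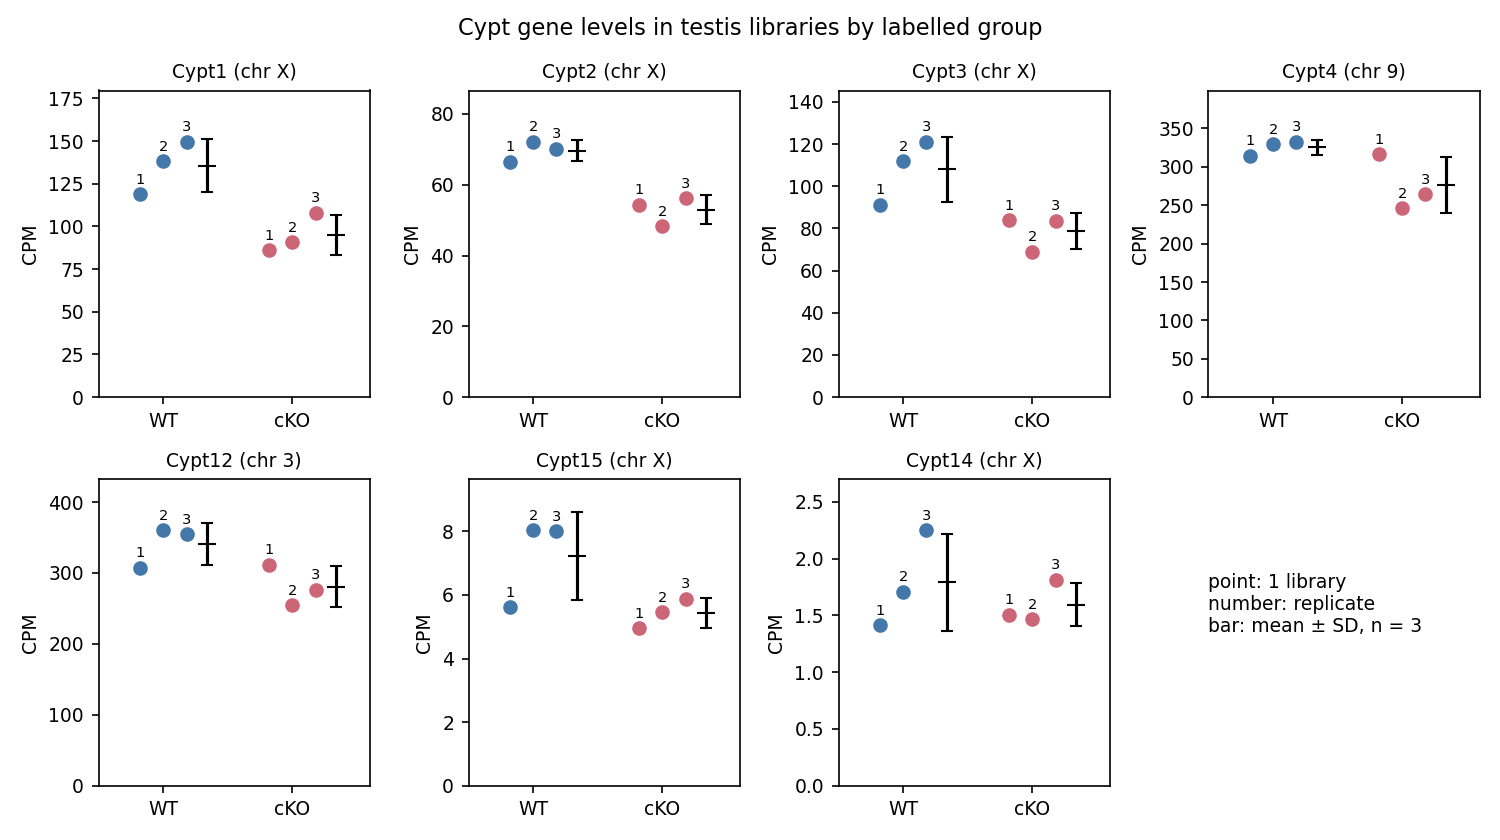
CPM of the 7 Cypt genes in each library, in 1 panel per gene with a y axis from 0. Points are libraries with their replicate number, and bars are the mean ± SD of 3 libraries. Cypt1, Cypt2 and Cypt3 are lower in every library labelled cKO, while Cypt4 and Cypt12 in cKO 1 sit at 317 and 311.5 CPM, inside the WT range.

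In cKO 1 the log2 CPM centred on its mean was -0.39 for Cypt1, -0.16 for Cypt2 and -0.13 for Cypt3. It was 0.08 for Cypt4 and 0.01 for Cypt12. Cypt2 and Cypt3 were lower still in cKO 2, at -0.33 and -0.41. The X-linked share of the summed CPM of the 5 members was 26.3% in cKO 1, against 29.4% and 31.4% in cKO 2 and 3. It was 30.8%, 31.8% and 33.2% in WT 1, 2 and 3. The groups overlapped in this share. The ratio of Cypt1 to Cypt4 reads was 0.272 in cKO 1, 0.368 and 0.408 in cKO 2 and 3, and 0.378, 0.419 and 0.450 in the WT-labelled libraries. In contrast, Cypt4 and Cypt12 kept a ratio between 0.914 and 1.02 in all 6 libraries. Of the 10 pairs of members, Cypt4 and Cypt12 had the smallest root mean square difference of log2 CPM profiles centred on their means, at 0.0585, and Cypt1 and Cypt4 the largest, at 0.233. This measure did not split the members by chromosome: Cypt2 was nearer to Cypt12, at 0.0946, than to Cypt3, at 0.104, or Cypt1, at 0.129. These differences are descriptions over the 6 libraries.

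Summed over the 5 members, the level was 899, 1012 and 1029 CPM in the WT-labelled libraries and 852.5, 709 and 789 CPM in the cKO-labelled libraries. The groups did not overlap in this sum, which took 0.0990% ± 0.00808 (SD, n = 3) of assigned reads in the former and 0.0776% ± 0.00744 (SD, n = 3) in the latter. In whole testis, fewer spermatids and less RNA per spermatid cannot be told apart. In edgeR's quasi-likelihood test over all genes, 4 genes passed an adjusted p of 0.05 (2 higher and 2 lower, a share of 0.0183%), and 0 of the 5 members were among them. The split of these calls was 4 higher and 2 lower with RLE scaling and 2 higher and 1 lower with library totals alone. All 5 members, and 49.3% of all genes, had log2 fold changes below 0. At an unadjusted p under 0.05, 5 of 5 members and 6.54% of all genes were lower. Without overlap between the groups, 3 of 5 members and 8.85% of all genes were lower. Since the contrast chose the family, these counts are no test of it and nothing is read from them. The median log2 fold change was -0.39 over the 5 members, 0.003 over all 21902 genes and -0.055 over the 856 tested X-linked genes.

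**Figure D3:**
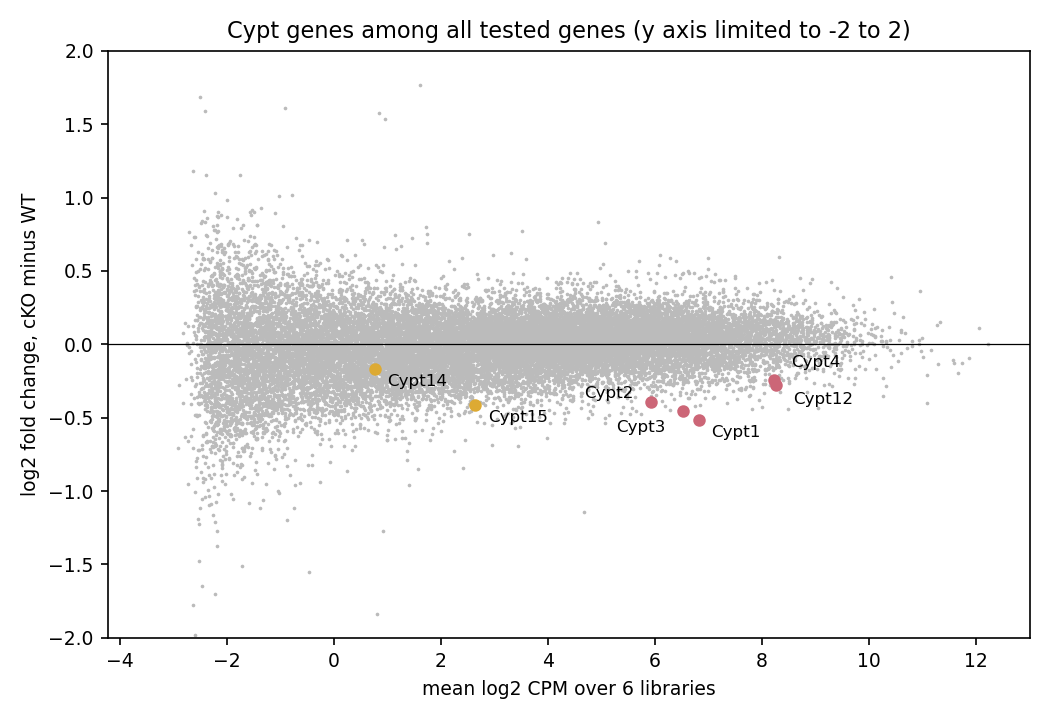
Log2 fold change, cKO minus WT (y axis) against mean log2 CPM over the 6 libraries (x axis) for the 21902 tested genes in grey, with the 5 members in red and Cypt14 and Cypt15 in yellow. The y axis is limited to -2 to 2, which leaves out 7 genes. All 7 Cypt genes lie below 0, with Cypt1 at -0.51, Cypt3 at -0.46 and Cypt2 at -0.39.

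Whether a member passed depended on the setting and on single libraries. These calls rest on the counts that chose the family, so they describe the settings and are no evidence for a difference. With edgeR, 0 members passed with RLE scaling, library totals alone, at least 10 reads in every library or unstranded counts, and 0 passed without WT 2, WT 3, cKO 2 or cKO 3. With DESeq2, which called 1.48% of the 13069 genes it gave an adjusted p, Cypt1, Cypt2 and Cypt3 passed. Without WT 1, edgeR called 0.518% of genes and the same 3 members. Without cKO 1 it called 2.82% of genes and all 5 members. Without the filter on low counts it called 2.07% of genes and 4 members, all except Cypt4, and with a replicate block 0.224% of genes and Cypt1 and Cypt2. The log2 fold change moved less than the calls: that of Cypt1 ranged from -0.62 to -0.45 when each library was left out in turn, that of Cypt2 from -0.44 to -0.33 and that of Cypt3 from -0.56 to -0.37. That of Cypt4 ranged from -0.35 without cKO 1 to -0.16 without cKO 2, and that of Cypt12 from -0.36 to -0.21 in the same 2 fits.

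**Figure D4:**
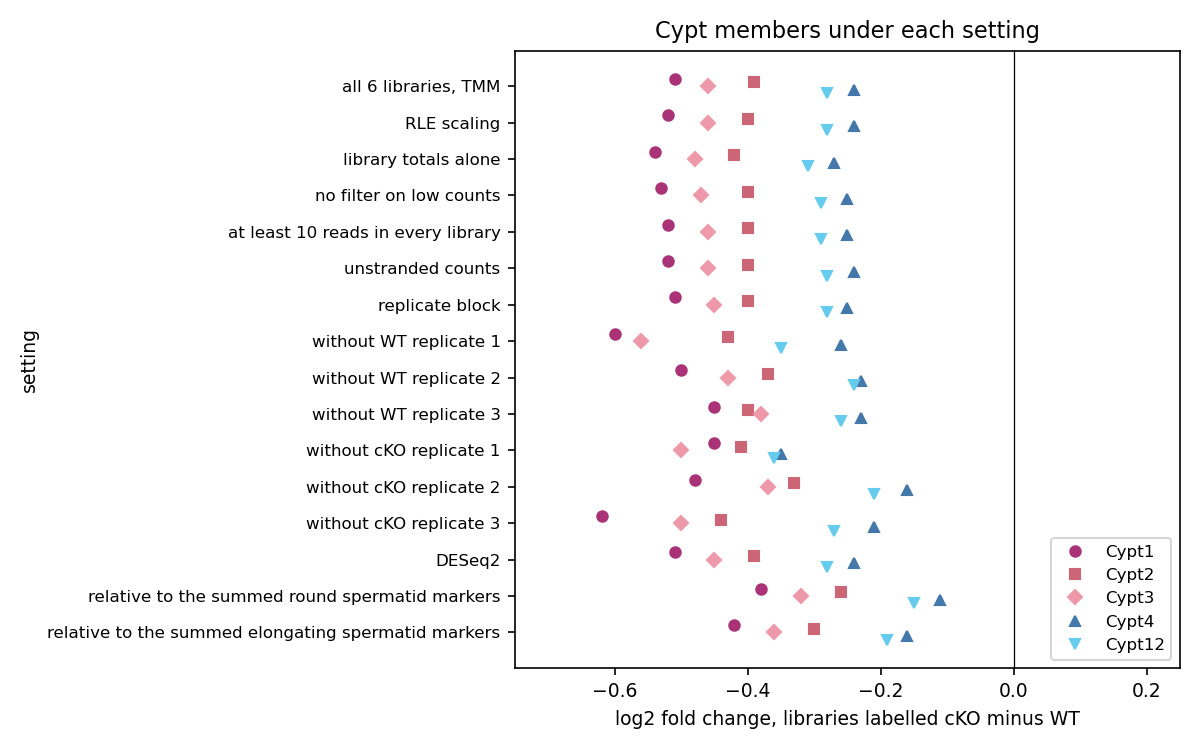
Log2 fold change of the 5 members (x axis, libraries labelled cKO minus WT) under each setting (y axis), with 1 symbol per member. All points lie below 0. The X-linked members lie farther from 0 than the autosomal ones in each of the settings shown, and without cKO 1 the distance between the 2 kinds is smallest, with Cypt4 at -0.35 and Cypt12 at -0.36.

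The genes of the family outside the chosen 5 and the Zfy genes were tested in the same fit. Cypt15 had 5.61, 8.04 and 8.01 CPM in the WT-labelled libraries and 4.96, 5.465 and 5.89 CPM in the cKO-labelled libraries, with a log2 fold change of -0.41 (SE 0.14, edgeR adjusted p = 0.299). Its groups overlapped, because WT 1 lay inside the cKO range. Cypt14, with 82 to 140 reads per library, had a log2 fold change of -0.17 (SE 0.18, edgeR adjusted p = 0.720), and without WT 3 it was 0.02. Zfy2, which shares the Cypt upstream region, had 7.06, 8.30 and 8.19 CPM in the WT-labelled libraries and 6.85, 7.39 and 7.12 CPM in the cKO-labelled libraries. Its log2 fold change was -0.14 (SE 0.098, edgeR adjusted p = 0.541). Zfy1, without that region, had a log2 fold change of -0.29 (SE 0.12, edgeR adjusted p = 0.329). The groups overlapped for both Zfy genes, and none of these 4 genes passed with edgeR or DESeq2, where DESeq2 gave no adjusted p for Cypt14. At an unadjusted edgeR p under 0.05, Cypt15 and Zfy1 were lower, beside 6.54% of all genes.

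Other genes of the perinuclear theca and of the junction between acrosome and nucleus showed how the Cypt genes compare with the structure they are named for. Of the 17 genes on this list, 0 passed with edgeR over all genes, 5 were lower at an unadjusted p under 0.05, beside 6.54% of all genes, and 1, Capza3, passed with DESeq2, beside 1.48% of the genes it gave an adjusted p. The median log2 fold change of the list was -0.07, against 0.003 over all genes, and 16 of 17 values lay below 0, against 49.3% of all genes. Among these 16, Dpy19l2 rounded to 0 and Capzb was at -0.01. With each library left out in turn, the list median ran from -0.14 without cKO 1 to -0.02 without cKO 3. In 2 of the 17 genes the groups did not overlap, both lower, beside 8.85% of all genes. Whether the list differs from the Cypt genes was not tested.

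Capza3, the germ cell alpha subunit of the actin capping protein, had 212, 293 and 287 CPM in the WT-labelled libraries and 196, 186 and 202 CPM in the cKO-labelled libraries. All libraries labelled cKO lay below the lowest WT library, WT 1. The log2 fold change was -0.44 (SE 0.11, edgeR adjusted p = 0.276). Capzb, its beta partner, had -0.01. Zpbp is on the list although it encodes an acrosomal zona pellucida binding protein. It was the other gene without overlap, at -0.16 (SE 0.071, edgeR adjusted p = 0.356). It also counts among the 5 list genes lower at an unadjusted edgeR p under 0.05.

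Structural proteins of the theca had values nearer to 0 than Capza3. The cylicins are basic cytoskeletal proteins of the posterior theca: X-linked Cylc1 had a log2 fold change of -0.07 (SE 0.087) and autosomal Cylc2 one of 0.18 (SE 0.094). Calicin, encoded by Ccin, had -0.06 (SE 0.081). Of the actin-related proteins of the sperm head, X-linked Actrt1 had -0.25 (SE 0.097), Actl9 -0.17 (SE 0.078), Actrt2 -0.09 (SE 0.12), Actl7a -0.07 (SE 0.069), Actrt3 -0.05 (SE 0.084) and Actl7b -0.04 (SE 0.088). The groups overlapped in each of these 9 genes. Plcz1, the sperm phospholipase linked to egg activation, had -0.18 (SE 0.11), Wbp2nl, a protein of the posterior theca, -0.05 (SE 0.079), and Gsto2, a glutathione transferase, -0.08 (SE 0.077). Spaca1 and Dpy19l2 act in attaching the acrosome to the nucleus. Spaca1 had -0.18 (SE 0.083). Dpy19l2, the gene around Cypt4, had 286 ± 19.7 and 286 ± 24.6 CPM (SD, n = 3) and a log2 fold change of 0.00 (SE 0.080, edgeR adjusted p = 0.996).

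X-linked genes of spermatids other than Cypt were compared next, with Cylc1 and Actrt1 also counted in the theca list above. Of 7 such genes, 0 passed with edgeR or DESeq2, 1 (Actrt1) was lower at an unadjusted p under 0.05 (6.54% of all genes were), and the groups overlapped in all 7. Their median log2 fold change was -0.09. Akap4, the main anchoring protein of the fibrous sheath of the sperm tail, had 2611 ± 194 and 2376 ± 73.8 CPM (SD, n = 3), and its log2 fold change was -0.14 (SE 0.070, edgeR adjusted p = 0.405). Tsga8 had -0.08, 1700013H16Rik -0.14, Spaca5 -0.09 and Akap14 0.06. Summed CPM of the list, mostly Akap4, was 2820 to 3200 in the WT-labelled libraries and 2680 to 2780 in the cKO-labelled libraries, without overlap.

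**Figure D5:**
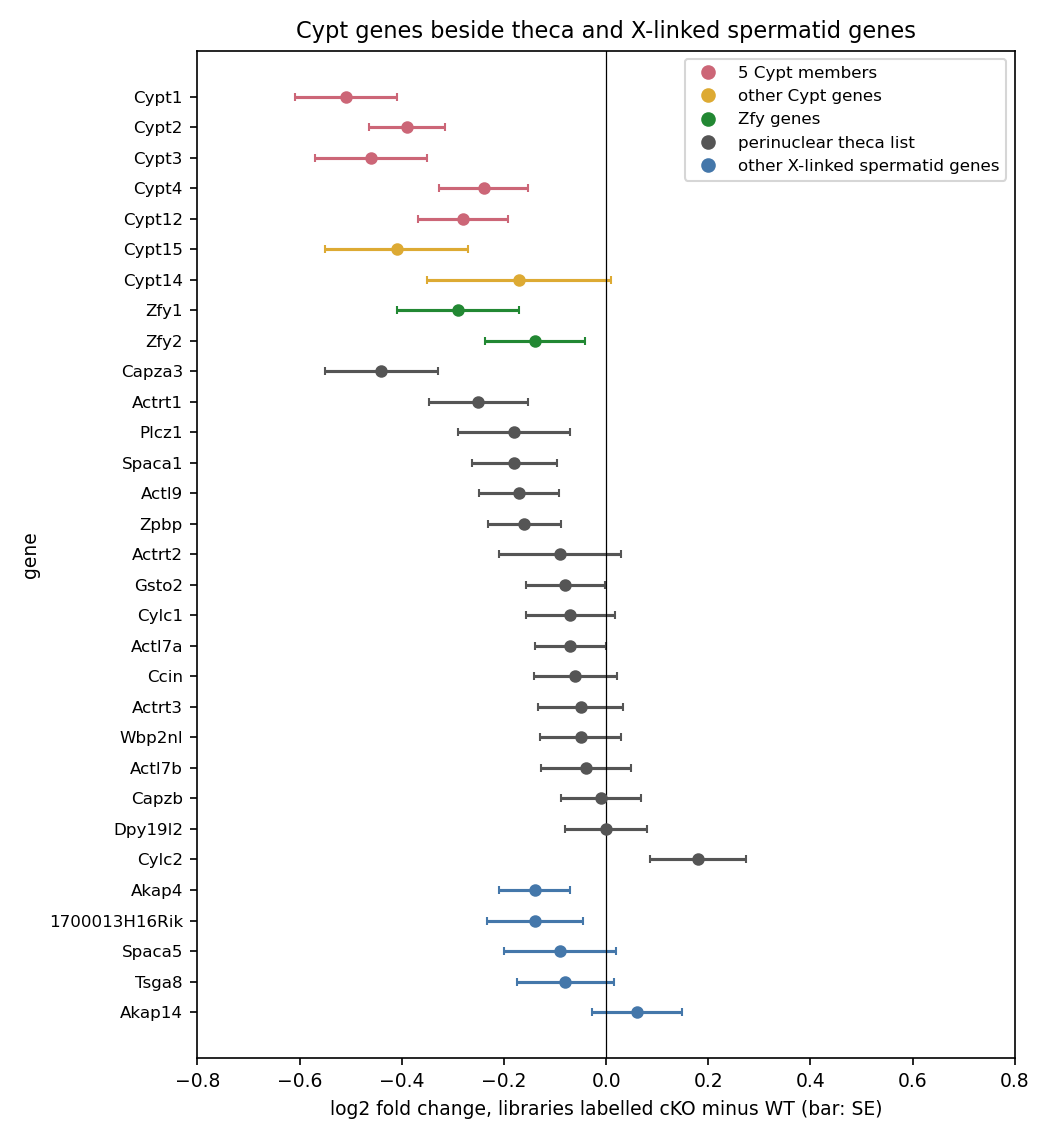
Log2 fold change with its SE (x axis, libraries labelled cKO minus WT) for the 5 members, Cypt15 and Cypt14, Zfy1 and Zfy2, the 17 theca genes and the X-linked spermatid genes not on the theca list (y axis). Of the theca genes, Capza3 at -0.44 lies within the range of the 5 members, which runs from -0.51 to -0.24, together with Actrt1 at -0.25.

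Cell type markers moved with the Cypt genes in part. Of 8 round spermatid markers, 7 had values below 0 with a median log2 fold change of -0.15, and their summed CPM was 1550 to 1570 in the WT-labelled libraries and 1360 to 1510 in the cKO-labelled libraries, without overlap. Of 10 elongating spermatid markers, 5 lay below 0, with a median of -0.01, and the sums overlapped (19100 to 21100 and 17000 to 20600 CPM). No marker of these lists was at 0 reads, and with edgeR 0 of the 18 markers passed, while 3 of 8 round and 2 of 10 elongating spermatid markers were lower at an unadjusted p under 0.05, beside 6.54% of all genes. DESeq2, which called 1.48% of the genes it gave an adjusted p, called Spata25, Tnp1 and Hmgb4 of these lists lower and Hsd17b3 of the 7 Leydig cell markers. Of the other cell type lists, only the 3 endothelial markers differed without overlap in their sum, which was 15.2 to 16.3 CPM in the WT-labelled libraries and 16.6 to 19.8 CPM in the cKO-labelled libraries. The sums of the spermatogonial, spermatocyte, Sertoli, Leydig, myoid, macrophage and epididymal lists overlapped between the groups, with median log2 fold changes of 0.10, -0.03, 0.09, -0.15, -0.04, -0.17 and -0.02 in that order. The epididymal value is that of 1 gene, since 1 of the 4 epididymal markers had enough reads to be tested. At an unadjusted edgeR p under 0.05, 2 of 7 Leydig cell and 2 of 6 macrophage markers were also lower. So were 1 of 8 spermatocyte and 1 of 5 myoid markers, beside 6.54% of all genes. Higher were 2 of 8 Sertoli, 1 of 6 macrophage, 1 of 5 myoid and 1 of 3 endothelial markers. The share of all genes higher at this threshold was not computed. The part of cell composition in the Cypt differences was not tested.

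The level of each member was also set against these markers within the same library. Relative to the summed elongating spermatid markers, the log2 differences were -0.42, -0.30, -0.36, -0.16 and -0.19 for Cypt1, Cypt2, Cypt3, Cypt4 and Cypt12. All 5 members were lower in every library labelled cKO than in any labelled WT. For Cypt4 the nearest libraries were WT 1 at 1.56% and cKO 1 at 1.54% of the marker sum. For Cypt12 they were 1.52% and 1.51% in the same libraries. The share of all genes without overlap on this scale was not computed. The contrast chose the family, so nothing is read from this count. Relative to the summed round spermatid markers the differences were smaller, -0.38, -0.26, -0.32, -0.11 and -0.15 in the same order. There Cypt2 alone stayed without overlap: it amounted to 4.27%, 4.63% and 4.47% of the marker sum in the WT-labelled libraries and 3.59%, 3.54% and 4.03% in the cKO-labelled libraries. Cypt1 overlapped by 1 pair of libraries, with 7.65% in WT 1 and 7.75% in cKO 3. Both marker comparisons were added with the data already seen.

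Genes with profiles most like those of Cypt1 and Cypt2 were picked among the 16820 tested genes that averaged 1 CPM or more, by the root mean square difference of log2 CPM centred on the mean over the 6 libraries. The 4 nearest to Cypt1 were Zfp735 (0.0387), Nrg3os (0.0502), 1700084D21Rik (0.0528) and 4930527F14Rik (0.0561), all autosomal. Among them Zfp735 had 1.67, 1.97 and 2.25 CPM in the WT-labelled libraries and 1.26, 1.36 and 1.54 CPM in the cKO-labelled libraries. The 4 nearest to Cypt2 were Hsd17b3 (0.0306), a testosterone-forming enzyme of Leydig cells, Ap1m2 (0.0403), Insl6 (0.0423), an insulin-like peptide of germ cells, and Gm10376 (0.0438), also autosomal. Insl6 had 144, 165 and 152.5 CPM in the WT-labelled libraries and 121, 114 and 123 CPM in the cKO-labelled libraries. These genes have the smallest of 16820 distances, and the profiles hold the group difference that chose the family, so the list is a description. Of the 4 other members, the nearest differed by 0.122 from Cypt1 and by 0.0946 from Cypt2.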

How the data were processed

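Whole-testis RNA of 3 WT and 3 cKO mice was sequenced with single-end reads of 75 bases, per the labels' protocols. The deposited values are raw counts per gene in the layout of STAR's gene counts. The submitters' processing notes name STAR, HTSeq and DESeq2 and the build mm10. The aligner's version, the annotation and the library kit are not given in the sources used here. Counts on the opposite strand (96.0% to 96.2% of the stranded reads of a library) were used. The lines for unmapped, multimapping, unassigned and ambiguous reads, 14.8% to 16.7% of reads, entered neither library sizes nor tests. Such counts hold uniquely mapped reads, so near-identical copies lose reads.

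Differential expression was tested with edgeR 4.0.16 (R 4.3.3): library sizes were scaled by TMM, genes were kept by filterByExpr at its minimum count of 10, the quasi-likelihood F test compared cKO with WT with no covariate, and p-values were adjusted by Benjamini-Hochberg over the 21902 genes kept, with a threshold of 0.05. Standard errors come from the F statistic. CPM and RPKM were computed from the counts with TMM-scaled library sizes and GENCODE M21 exon lengths. GENCODE M21 matched 52147 of 53700 identifiers. Upstream sequences came from RefSeq (GRCm38.p6) for all 7 Cypt genes and both Zfy genes, and were compared by global pairwise alignment. The motifs were chosen with the sequences in view.

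The members and lists were chosen with earlier results of these data known. The rule for named genes took all numbered Cypt genes, Msl3, Zfy1, Zfy2, both gene lists, genes overlapping a member and the 4 profiles nearest to Cypt1 and to Cypt2.

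Alternatives were RLE scaling, library totals alone, no filter, at least 10 reads in every library, unstranded counts, a replicate block, DESeq2 1.42.0, a threshold of 0.1 and each library left out. On simulated counts drawn from the real means and dispersions, the test missed part of the small changes, and the share of false calls among those it made was above the threshold for small changes and under it for large ones.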

Additional observations from a re-analysis of the deposited data

How the results depend on the processing

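The median log2 fold change of the 5 members, -0.39, lay below 0 in all 15 alternatives. The contrast chose the family and the alternatives use the same counts, so this count is no test. The median ran from -0.44 to -0.33 when each library was left out in turn. It was -0.26 relative to the summed round spermatid markers and -0.3 relative to the elongating ones, both chosen after seeing the data. The number of genes called was 4. It was 757 without the filter on low counts, 2 with unstranded counts and 193 with DESeq2, and from 1 to 628 with each library left out in turn, the highest without cKO 1. Of the theca list 0 genes passed, against 1 (Capza3) without the filter, with DESeq2 and without WT 1, so that the range over left-out libraries was 0 to 1. The cause was not tested. The labels do not say that the replicate numbers pair mice, so the main fit had no block. Deviations from the group means correlated at 0.35, 0.26 and -0.05 between libraries of the same number. Libraries of different numbers were not compared, so these values cannot decide whether the numbers pair mice. With the replicate block the count of genes was 49, the median of the members was -0.40 and 0 theca genes passed. The number of mice, 3 in each group, limits the precision.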
